A study of Mus musculus with 5 samples.

Results

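The expression of 10 genes that mark tissue macrophages was followed in bulk RNA-seq of mouse embryonic airway tissue. They were chosen by symbol from the deposited FPKM table (fragments per kilobase of gene, scaled to the reads of the library), and all 10 of 10 were found among its 19699 gene entries. They are Csf1r, C1qa, C1qb, C1qc, Tyrobp, Fcer1g, Mrc1, Cx3cr1, Aif1 and Lyz2. The tissue was trachea and lung, taken as the main section of the airway, from embryos at the stage E13.5, in mid-gestation. There were 2 mutant libraries, labelled Prmt5 knockdown, and 3 control libraries, labelled WT. Per the design text and the growth protocol, the mutants had Prmt5, an arginine methyltransferase gene, knocked out in lung epithelial cells, the mice were C57, and the controls were littermates. The design text writes Shh beside Prmt5 in the mutant genotype, and the driver of the deletion is not given in the sources used here. The comparison asked which genes differ after the loss of Prmt5 from the epithelium. Macrophages are not epithelial cells, and the deletion was aimed at epithelium. The labels do not give the number of embryos behind a library. The spread behind the p-values is that of these libraries and can be partly technical.

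Macrophages of the fetal lung descend from yolk sac and fetal liver progenitors and settle in the mesenchyme before birth, ahead of the alveolar macrophages of the air spaces. They depend on CSF1R, the receptor tyrosine kinase for the growth factors CSF1 and IL34, and on the transcription factor PU.1, which is encoded by Spi1. They clear dying cells, and they are a main source of C1q, the recognition protein that opens the classical complement pathway.

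Promoter sequence was available from RefSeq (GRCm38.p6) for 7 of the 10 genes, in windows of 250 bases before to 50 bases after the start of the gene. The core of the PU.1 site, GAGGAA on either strand, was found in 4 of these 7 windows, those of Mrc1, C1qb, C1qc and Aif1, and in 28.3% of the 32851 windows of the table. The RUNX core TGNGGT was found in 6 of 7, against 45.8% of all windows. The MAF site TGCTGA was in 2 of 7, against 19.5%, and the AP-1 site TGANTCA and the letters TATAAA were in 0 of 7, against 7.81% and 13.6%. No match overlapped a match of another site. The stretches just upstream of C1qb and Mrc1 are shown because each holds a PU.1 core close to the start. They end before the gene body in the GENCODE M21 annotation, capitals mark the core, and Mrc1 carries it on the opposite strand. A match of letters is a description and no evidence of binding.
C1qb, chr4:136886201-136886300, minus strand: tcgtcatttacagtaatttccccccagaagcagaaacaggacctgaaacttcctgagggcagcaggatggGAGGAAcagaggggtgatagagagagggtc
Mrc1, chr2:14229314-14229391, plus strand: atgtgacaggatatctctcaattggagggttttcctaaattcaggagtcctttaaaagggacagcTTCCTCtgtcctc

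The libraries held 15652503 to 18682463 reads in the denominator of the FPKM, as recovered from the steps between values. Control replicate 1 stood apart in its make-up, where the epithelial gene Epcam reached 124 FPKM. It was at 66.5 and 51.4 FPKM in the remaining controls, and 38.2 and 40.1 FPKM in both mutants. The mix of sexes also differed with genotype. Xist, a female-specific RNA, was under 1 FPKM in both mutants, while control libraries had 57.3, 58.1 and 115 FPKM. The summed level of 4 Y-linked genes was 31.5 and 27.1 FPKM in mutant and 23.0, 18.8 and 4.49 FPKM in control libraries, so that both signals were present in every control. Prmt5 itself measured 23.7 and 20.1 FPKM in mutant libraries and 25.8 to 28.7 FPKM in control libraries, in pieces that also held mesenchyme.

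All 10 macrophage genes were detected in all 5 libraries, from 23 to 894 reads each, and all 10 passed the filter on low values of 1 FPKM in at least 2 libraries. Markers of other blood cells ranged from almost no reads to levels like those of the members. Of the lists of other leukocytes, 2 of 8 monocyte, 6 of 10 neutrophil, 3 of 8 mast cell, 2 of 8 dendritic cell, 2 of 10 lymphocyte and 1 of 9 alveolar macrophage genes passed the filter. S100a9 and S100a8, of neutrophils, had control means of 11.9 and 5.79 FPKM, and F13a1, of monocytes and macrophages, had 5.92 FPKM in the controls and 11.1 FPKM in the mutants. Zbtb46 and Cd74, of dendritic cells, were at 1.66 and 3.21 FPKM in the controls, Plac8, of monocytes, at 3.06 FPKM, and Fabp4, of alveolar macrophages and also of endothelium, at 2.10 FPKM. At the low end, Cd3e, of T cells, had 1 read over the 5 libraries, and Cd209a, of dendritic cells, had 1. The alveolar macrophage genes Marco, Siglecf and Ear2 had 2, 7 and 1 reads. Of the monocyte genes, Ly6c2 had 4 mutant and 7 control reads, and the chemokine receptor gene Ccr2 had 63 and 75, as sums over 2 and 3 libraries. The members were detected throughout, but their levels alone do not show that macrophages were their source, and several of them are not exclusive to macrophages. Tyrobp and Fcer1g are also used by mast cells, natural killer cells and granulocytes, Mrc1 by some endothelium, and Lyz2 by alveolar type 2 cells.

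Ordered by their mean in the controls, the level per length ran from C1qa at 20.5 FPKM through C1qb at 16.1, Lyz2 at 14.9, Tyrobp at 10.7, C1qc at 10.2, Fcer1g at 7.94, Csf1r at 7.91, Mrc1 at 6.91 and Cx3cr1 at 3.91 to Aif1 at 1.64 FPKM. From C1qa down to Mrc1, the control values of each neighbouring pair overlapped. Mrc1 against Cx3cr1 and Cx3cr1 against Aif1 were the 2 neighbouring pairs whose control values did not.

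**Figure D1:**
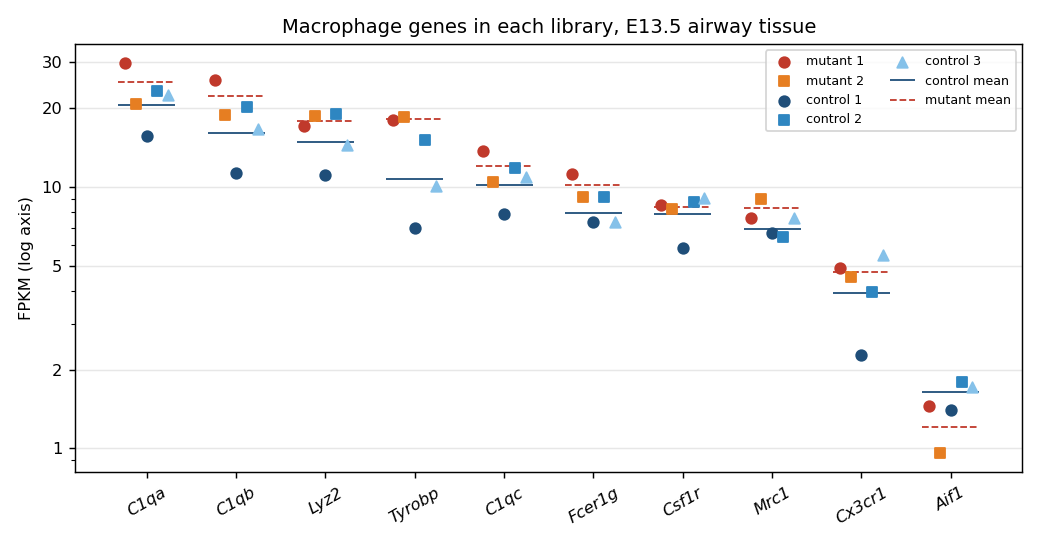
FPKM of each macrophage gene (log axis) in the 2 mutant and 3 control libraries, with 1 point per library and lines at the group means, ordered by control mean. Control replicate 1 is the lowest library for 7 of the 10 genes, and the 2 mutant points lie above all controls for Tyrobp, Fcer1g and Mrc1.

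No macrophage gene passed the test of mutants against controls. With limma, 0 of 10 were past an adjusted p of 0.05, where 2.36% of the 12838 genes tested were, 0.989% higher and 1.37% lower. At an unadjusted p under 0.05 there was 1 of 10, Tyrobp, against 18.9% of all genes (6.53% higher), and voom on the recovered reads also called 0 of 10, against 4.7% of all genes. The log2 change of FPKM + 1 was above 0 for 9 of the 10 genes, against 38.9% of all genes, and Aif1 was the exception. With TPM, which rescales each library to 1 total, the change was above 0 for 1 of 10. With Gm23935, Lars2 and Rn18s-rs5 left out of that total, it was above 0 for 9 of 10. With the Epcam level as a covariate it was above 0 for 3 of 10. Epcam was lower in both mutants than in all controls, so that fit cannot fully separate its level from genotype. The median log2 change of the members was 0.28 and that of all genes tested was -0.059. These medians were -0.27 and -0.59 with TPM, and 0.23 and -0.12 with TPM without the 3 genes. Both mutants lay above all 3 controls for 3 of 10, against 13.2% of all genes, and below them for 0 of 10, against 24.4%. The groups thus did not overlap for 3 members, against 37.6% of all genes. The members share a cell type and are not independent of each other. In bulk tissue, a change in the number of cells of a type and a change in RNA per cell cannot be told apart.

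Csf1r, the growth factor receptor on which macrophages depend (chromosome 18, plus strand), measured 8.56 and 8.25 FPKM in mutant libraries (659 and 631 reads). In control libraries it measured 5.85, 8.79 and 9.09 FPKM (534, 700 and 809 reads). Both mutants fell inside the range of the controls, between control replicate 1 and the other two. Csf1r had a log2 change of 0.10 (SE 0.18, 95% interval -0.32 to 0.52, limma adjusted p = 0.832). Exons of Csf1r overlap those of Hmgxb3 on the opposite strand, and the use of strand in counting is not given in the sources used here.

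The ligands of CSF1R were low or did not pass. Csf1 stood at 5.31 and 6.13 FPKM (mutants) and 3.50, 5.03 and 4.81 FPKM (controls), with both mutants above all controls (log2 change 0.31, limma adjusted p = 0.356). Il34, with 46 mutant and 41 control reads, was below the filter. Csf2rb, a receptor subunit for other myeloid growth factors, was also below it, at 0.539 to 0.783 FPKM over all libraries.

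C1qa, C1qb and C1qc encode the 3 chains of C1q and lie side by side on the minus strand of chromosome 4. In GENCODE M21 (GRCm38), C1qb spans 136880129 to 136886187, C1qc 136889804 to 136893065 and C1qa 136895917 to 136898803, 18675 bases in all. C1qa had mutant values of 29.7 and 20.8 FPKM and control values of 15.7, 23.4 and 22.4 FPKM. Mutant replicate 1 was the highest library and control replicate 1 the lowest, while mutant replicate 2 lay among the controls. The log2 change of C1qa was 0.28 (SE 0.21, limma adjusted p = 0.525).

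C1qb measured 25.7 and 18.8 FPKM in mutant and 11.3, 20.2 and 16.7 FPKM in control libraries. Its log2 change was 0.47 (SE 0.24, 95% interval -0.088 to 1.02, limma adjusted p = 0.345), the second largest of the members. C1qc stood at 13.7 and 10.4 FPKM (mutants) and 7.87, 11.8 and 10.9 FPKM (controls) (log2 change 0.23, limma adjusted p = 0.585). All 3 chains had their highest value in mutant replicate 1 and their lowest in control replicate 1. The groups overlapped for each of them.

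The C1qc chain kept a nearly steady proportion to C1qa while both levels moved. The C1qc level was 0.461 and 0.502 times that of C1qa in the mutants, and 0.4999, 0.506 and 0.487 times in the controls. C1qb was at 0.864 and 0.908 times C1qa in the mutants and at 0.718, 0.864 and 0.744 times in the controls. The level of C1qa itself ran from 15.7 to 29.7 FPKM over the same libraries.

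Tyrobp encodes DAP12, a transmembrane adaptor that carries an activation motif for myeloid receptors such as TREM2 (chromosome 7, 30413760 to 30417585, plus strand). It measured 18.0 and 18.6 FPKM in mutant libraries (189 and 194 reads), and 6.98, 15.1 and 10.1 FPKM in control libraries (87, 164 and 123 reads). Both mutants lay above all controls, and the mutant mean was 70.4% higher. Tyrobp had a log2 change of 0.78 (SE 0.26, 95% interval 0.17 to 1.39), with an unadjusted p of 0.0193 and an adjusted p of 0.168 by limma. A two-sided exact permutation test on FPKM gave p = 0.2, where the smallest p that 10 splits of 5 libraries allow is 0.1. Without control replicate 1 the log2 change was 0.53, and without control replicate 2 it was 1.03 (limma adjusted p = 0.204 and 0.0526). Relative to Csf1r, Tyrobp was at 2.10 and 2.25 times in the mutants and at 1.19, 1.72 and 1.11 times in the controls, a ratio that was chosen after its values were seen and has no test. Relative to C1qa it was at 0.605 and 0.895 against 0.443, 0.644 and 0.451 times, and relative to Fcer1g at 1.60 and 2.03 against 0.95, 1.65 and 1.38 times, and in both of these ratios the groups overlapped.

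Fcer1g encodes the common gamma chain of Fc receptors, the other adaptor of this kind (chromosome 1, 171229572 to 171234365, minus strand). It had mutant values of 11.3 and 9.14 FPKM and control values of 7.35, 9.12 and 7.35 FPKM. Both mutants were above all controls, but the nearest pair, mutant replicate 2 and control replicate 2, rests on 125 and 130 reads, whose gap after scaling is within counting error. Its log2 change was 0.32 (SE 0.14, 95% interval -0.011 to 0.66, limma adjusted p = 0.281).

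Of 16 receptors and kinases that act with these adaptors, 8 were tested, 0 passed, and the median log2 change was 0.08. Fcgr3, a low-affinity receptor for IgG that signals through the Fcer1g chain, measured 7.28 and 5.96 FPKM in mutant and 3.08, 5.83 and 3.92 FPKM in control libraries (log2 change 0.56, limma adjusted p = 0.226). Fcgr1, the high-affinity IgG receptor, and Syk, the kinase that both adaptors recruit, had log2 changes of 0.21 and 0.15. Trem2, a receptor for lipids and dying cells that needs Tyrobp, was at 0.574 to 1.09 FPKM over all libraries, with a log2 change of 0.13. Hcst, the related adaptor DAP10, had 5 mutant and 7 control reads.

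Mrc1 encodes the mannose receptor CD206, which takes up glycoproteins (chromosome 2, 14229392 to 14332057, plus strand). It measured 7.63 and 8.96 FPKM in mutant libraries (766 and 894 reads) and 6.65, 6.46 and 7.61 FPKM in control libraries (792, 671 and 883 reads). Both mutants lay above the controls, although mutant replicate 1 and control replicate 3 were nearly level. Mrc1 had a log2 change of 0.23 (SE 0.13, 95% interval -0.064 to 0.53, limma adjusted p = 0.378). Mrc1 was the least variable member across the controls, with a coefficient of variation of 8.90%.

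Cx3cr1, the receptor for the chemokine fractalkine (chromosome 9, 119901616 to 120069879, minus strand), stood at 4.90 and 4.54 FPKM (mutants) and 2.27, 3.95 and 5.52 FPKM (controls). The controls held both the lowest and the highest value, and they had the widest spread of any member, with a coefficient of variation of 41.4%. Cx3cr1 had a log2 change of 0.27 (SE 0.27, 95% interval -0.35 to 0.90, limma adjusted p = 0.645). Exons of Cx3cr1 overlap those of Gm33858 on the opposite strand. Its ligand gene Cx3cl1 had mutant values of 1.27 and 1.00 FPKM and control values of 4.13, 2.20 and 2.55 FPKM. Both mutants lay below all controls for Cx3cl1, but the difference did not pass (log2 change -0.86, limma adjusted p = 0.095).

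Aif1, which encodes the actin-binding protein IBA1 (chromosome 17, 35170991 to 35176068, minus strand), was the lowest member and the 1 with a negative log2 change. It measured 1.45 and 0.959 FPKM in mutant libraries (35 and 23 reads) and 1.40, 1.80 and 1.72 FPKM in control libraries (40, 45 and 48 reads). Mutant replicate 1 lay within the controls and mutant replicate 2 below them. Its log2 change was -0.27 (SE 0.18, 95% interval -0.69 to 0.16, limma adjusted p = 0.492). Its coefficient of variation over the controls, 13.02%, was below the 15.1% that counting these reads gives by itself. The part of read depth in its result was not tested.

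Lyz2, the lysozyme gene of myeloid cells (chromosome 10, 117277331 to 117282321, minus strand), measured 17.1 and 18.7 FPKM in mutant and 11.2, 19.1 and 14.5 FPKM in control libraries. Control replicate 2 was the highest library and both mutants fell inside the range of the controls. Lyz2 had a log2 change of 0.28 (SE 0.20, 95% interval -0.19 to 0.75, limma adjusted p = 0.519). The near copy Lyz1 had 1 mutant and 2 control reads, so few reads were listed under that paralog. The alveolar type 2 gene Sftpc ranged from 34.4 to 46.7 FPKM in mutant libraries and stood at 18.9, 56.2 and 4.85 FPKM in control replicates 1, 2 and 3. Control replicate 2 was thus the highest control for both genes. It was also the highest control for C1qa, C1qb, C1qc, Tyrobp, Fcer1g and Aif1, but not for Csf1r, Mrc1 and Cx3cr1. Control replicates 1 and 3 stood in opposite order for Sftpc and Lyz2. The part of cells that express Sftpc in the Lyz2 level was not tested.

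**Figure D2:**
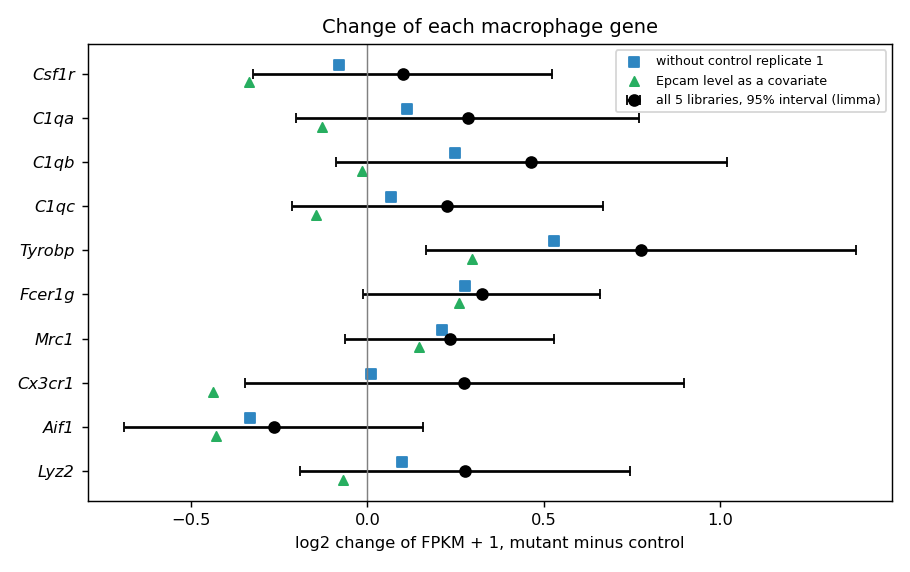
Log2 change of FPKM + 1, mutant minus control, for each macrophage gene, with its 95% interval by limma over all 5 libraries (black), the value without control replicate 1 (blue squares) and the value with the Epcam level as a covariate (green triangles). The interval of Tyrobp, 0.17 to 1.39, lies above 0 before adjustment over all genes, and the blue and green points lie to the left of the black ones for every gene. With TPM, which is not drawn, Tyrobp alone lies above 0, and with Gm23935, Lars2 and Rn18s-rs5 left out of its total, 9 of the 10 genes do.

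Much of the spread among the members came with single libraries. Control replicate 1 was the lowest library for 7 of the 10 members, against 18.9% of all genes tested. The other lowest values were those of Fcer1g in control replicate 3, Mrc1 in control replicate 2 and Aif1 in mutant replicate 2. Set against the control mean of each gene, the median of the members was 1.30 and 1.16 in the mutants and 0.758, 1.14 and 1.06 in the controls. Mutant replicate 2 and control replicate 2 were thus nearly level.

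The summed level of the 10 genes was 138 and 119 FPKM in mutant and 76.6, 120 and 106 FPKM in control libraries. The groups overlapped, since control replicate 2 was level with mutant replicate 2. Without control replicate 1, the median log2 change of the members went from 0.28 to 0.10. Control replicate 1 had the highest level of the epithelium list and the lowest of the endothelium list, with medians at 1.54 and 0.814 times the control mean of each gene. The pan-leukocyte list had its lowest median there too, at 0.840. With the Epcam level as a covariate the median of the members was -0.10, and with the level of Y-linked genes as a covariate it was 0.34, with 0 of 10 called in either. Neither of these levels overlapped between mutants and controls, so each covariate is partly confounded with genotype. Whether the share of epithelium in the piece accounts for the member levels was not tested beyond these values.

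**Figure D3:**
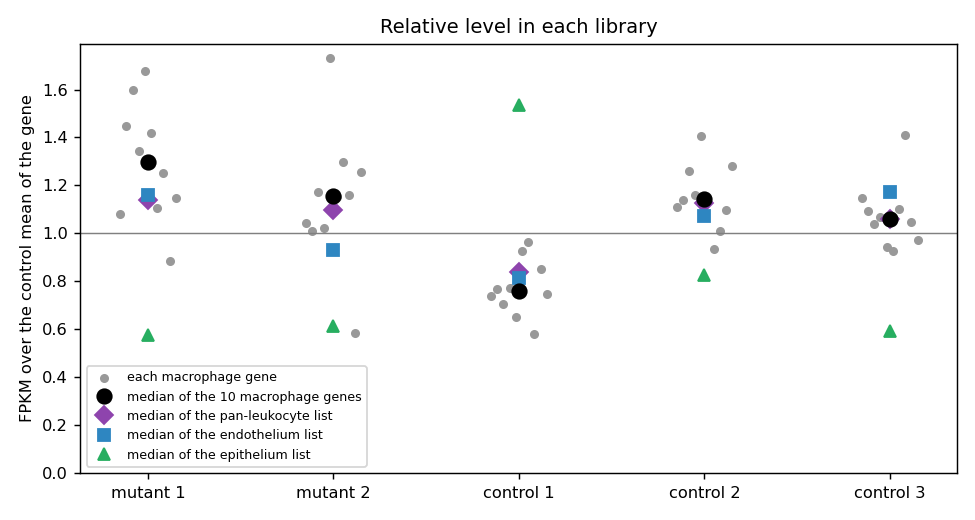
Level of each gene over its own control mean (1 on the vertical axis) in each library, for the 10 macrophage genes (grey, with their median in black) and as the median of the tested genes of the pan-leukocyte, endothelium and epithelium lists. In control replicate 1 the macrophage median is 0.758 and the epithelium median 1.54, and in the other 4 libraries the macrophage median lies between 1.06 and 1.30.

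The spread of the controls was set beside counting error for 5 members. The coefficient of variation across the controls was 22.6% for Csf1r, where counting its reads gives 3.87%. It was 38.1% against 9.18% for Tyrobp, 27.9% against 5.79% for C1qb and 26.7% against 5.55% for Lyz2. For Fcer1g the values were closer, at 12.9% against 9.05%.

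Other macrophage genes were compared in the same fit. Of 30 further surface and lysosome genes, 20 were tested, 1 was higher and 0 lower, and the median log2 change was 0.17. The 1 that passed was Gas6, which encodes a bridging protein between dying cells and the receptors AXL and MERTK and is also made by cells other than macrophages. Gas6 stood at 38.4 and 39.5 FPKM (mutants) and 20.2, 21.8 and 18.9 FPKM (controls) (log2 change 0.91, SE 0.11, limma adjusted p = 0.0107). Both mutants lay far above all controls. The call was lost without mutant replicate 1 and without mutant replicate 2 (adjusted p = 0.106 and 0.123), with the Epcam level as a covariate (0.0858) and with TPM (0.698). The log2 change was 0.93, 0.89 and 0.94 in the first 3 of these and 0.36 with TPM. Its receptor genes Axl and Mertk did not follow it, with both mutants below all controls and log2 changes of -0.37 and -0.41 (limma adjusted p = 0.212 and 0.19).

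Adgre1, the gene of the F4/80 antigen, had mutant values of 3.76 and 3.94 FPKM and control values of 2.82, 3.005 and 3.06 FPKM, with no overlap (log2 change 0.29, limma adjusted p = 0.27). Cd68, a lysosomal marker, measured 12.2 and 5.997 FPKM in mutant and 6.52, 8.64 and 8.17 FPKM in control libraries, so that the 2 mutants lay on either side of the controls. Lyve1, a hyaluronan receptor of fetal macrophages and lymphatic vessels, had a log2 change of 0.23. Pf4, shared with megakaryocytes, was at 15.1 and 19.9 FPKM against 8.83, 13.01 and 11.3 FPKM (log2 change 0.62, limma adjusted p = 0.125). Folr2, a folate receptor gene, and Timd4, a receptor for phosphatidylserine, had 43 and 11 mutant reads and 34 and 36 control reads and were not tested.

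Of 12 transcription factor genes of macrophages, 11 were tested, 0 passed, and the median log2 change was 0.19. Spi1 stood at 2.52 and 2.23 FPKM (mutants) and 1.69, 2.07 and 2.53 FPKM (controls) (log2 change 0.13, limma adjusted p = 0.743). Irf8, a factor of monocyte and macrophage development, had a log2 change of 0.24. Both mutants lay above all controls for Cebpa, Nr1h3, Maf and Zeb2. Cebpa, which is also expressed in lung epithelium, was at 12.95 and 9.89 FPKM against 6.38, 6.14 and 7.12 FPKM, just outside the threshold (log2 change 0.71, limma adjusted p = 0.0516). It passed in 4 alternatives, which are voom, median ratio scaling, quantile normalization and a stricter filter (limma adjusted p = 0.0245 to 0.0358). It did not pass with TPM, the Epcam level, no filter or the Y-linked level (limma adjusted p = 0.805, 0.295, 0.156 and 0.111). Nr1h3, a liver X receptor gene, and Maf had log2 changes of 0.86 and 0.60 (limma adjusted p = 0.0925 and 0.193).

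Of 11 genes of signals to macrophages, 8 were tested and 0 passed, with a median log2 change of -0.24. Cxcl12, a chemokine of mesenchyme, had mutant values of 30.2 and 25.3 FPKM and control values of 40.3, 43.4 and 52.3 FPKM (log2 change -0.69, limma adjusted p = 0.0576). It passed with voom and with the stricter filter of a mean of at least 5 FPKM (limma adjusted p = 0.0277 and 0.0374). It did not pass with TPM, the Y-linked level, no filter or the Epcam level (limma adjusted p = 0.662, 0.218, 0.163 and 0.111). Ccl2, a chemokine for monocytes, had both mutants above all controls (log2 change 0.60, limma adjusted p = 0.151). Of 15 other complement genes, 7 were tested and 0 passed. Cd55, a membrane inhibitor of complement that epithelium expresses, was lowest in the mutants, at 4.81 and 3.70 FPKM against 14.2, 6.41 and 9.75 FPKM (log2 change -1.03, limma adjusted p = 0.106). Serping1, which encodes the C1 inhibitor, had a log2 change of 0.20. C1ra and C1s1, the proteases that bind C1q, had 87 and 61 reads over the 2 mutant libraries and 75 and 139 over the 3 control libraries. C3 had 81 and 132. The mutant and control means were 0.929 and 0.480 FPKM for C1ra, 0.620 and 0.828 FPKM for C1s1, and 0.502 and 0.488 FPKM for C3.

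Of 12 pan-leukocyte genes, 8 were tested and 0 passed, with a median log2 change of 0.17. Laptm5, a lysosomal gene of blood cells, had a log2 change of -0.0030, and Lsp1, Arhgdib and Cyba of -0.32, 0.25 and 0.20. Ptprc, which encodes CD45, had 112 reads over the 2 mutant and 199 over the 3 control libraries, at 0.163 to 0.252 FPKM. Its mean was 0.195 FPKM in mutant and 0.203 FPKM in control libraries, and it was not tested. The summed level of the macrophage genes over that of the list without Cyba and Lsp1, its 2 highest genes, was 3.41 and 2.90 in the mutants and 2.56, 3.02 and 2.86 in the controls. The groups overlapped in this ratio. Over the summed endothelium list the ratio was 0.637 and 0.671 in mutant and 0.517, 0.589 and 0.480 in control libraries, and both mutants lay above all controls. Neither ratio was tested.

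**Figure D4:**
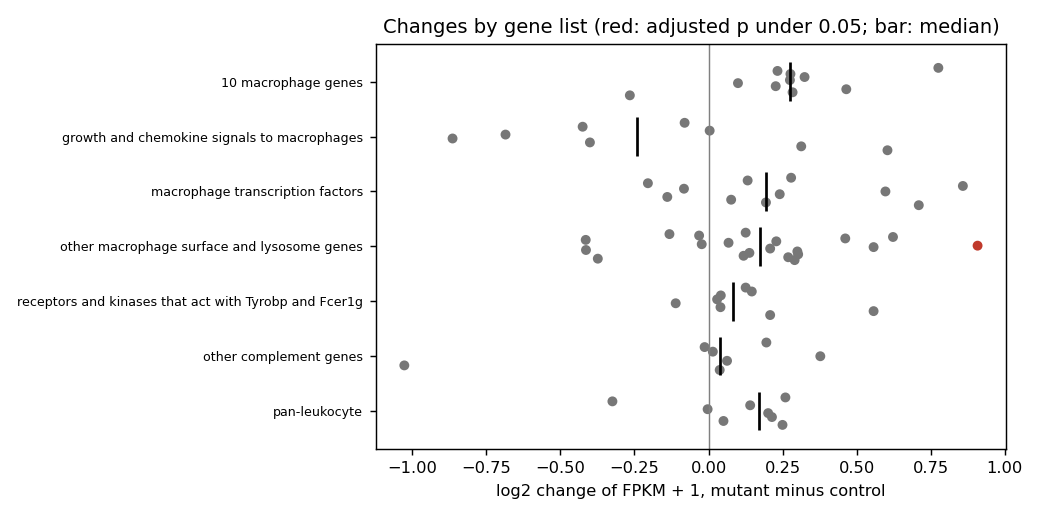
Log2 change of FPKM + 1, mutant minus control, of every tested gene of the macrophage members and of 6 related lists, with 1 point per gene, a bar at the median of each list and red for an adjusted p under 0.05 by limma. Gas6 is the 1 red point, and the median of the 10 members lies to the right of the other medians. The member median is 0.28 on this scale, -0.27 with TPM and 0.23 with TPM without Gm23935, Lars2 and Rn18s-rs5.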

How the data were processed

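The authors deposited 1 table of FPKM values, a unit read from the table's name. Per the submitters' processing notes the build was GRCm38 (mm10). For aligner, counter, annotation, filters and strand, nothing is stated in the sources used here. The extract protocol in the labels gives 1.3 ug of total RNA and a SMARTER kit. The labels' treatment protocol describes cultured fat cells and was not used. Whole reads were recovered, since in 100% of entries the FPKM were whole multiples of 1 read at a relative tolerance of 1e-09, up to a factor shared by all libraries of a gene. Differences were tested with limma 3.58.1 in R 4.3.3 (lmFit and eBayes with a trend), two-sided, after a log2 transform of FPKM plus a pseudocount of 1. Genes needed 1 FPKM in at least 2 libraries (12838 genes), and p-values were adjusted over these genes after Benjamini and Hochberg, with a threshold of 0.05. This scale understates the change of low genes. The steps were tested on simulated reads with the same spread set for all genes, so the outcome does not carry over to genes that vary more. Intervals cover the spread of libraries. Shares and counts of reads carry counting error only. Reads given as 1 mutant and 1 control count are sums over 2 and 3 libraries. Members, lists and tests were chosen with earlier results of these data known. Named genes are the members, the genes of each list past the threshold or with the 3 smallest p, and a set of macrophage and blood genes given whatever they show, except some that are not reported here. Others (Hba-x, Pdgfra, Col1a1, Col1a2, Axl, Zeb2, Hmgxb3, Gm33858, Marco, Siglecf, Ear2, Cd3e, Cd209a, Elane, Lyz1, Xist) were added after their values were seen. A gene can stand in more than 1 list.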

Additional observations from a re-analysis of the deposited data

How the results depend on the processing

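In all 18 alternatives 0 members passed the threshold. The lowest adjusted p of a member was 0.0526, for Tyrobp without control replicate 2, and Tyrobp stayed above 0 in all 18. The median log2 change of the members was 0.10 to 0.36 when 1 library was left out, -0.27 with TPM, where the median of all genes was -0.59, and -0.10 with the Epcam level as a covariate. With TPM, Csf1r, C1qa, C1qb, C1qc, Fcer1g, Mrc1, Cx3cr1 and Lyz2 turned to -0.43, -0.27, -0.077, -0.31, -0.20, -0.29, -0.19 and -0.27, and Csf1 to -0.18. TPM divides by summed FPKM of 327297 to 907362, and with Gm23935, Lars2 and Rn18s-rs5 left out of the sums the median of the members was 0.23. With the Epcam level, Csf1r, C1qa, C1qb, C1qc, Cx3cr1 and Lyz2 turned to -0.34, -0.13, -0.016, -0.14, -0.44 and -0.069. Csf1r was at -0.079 without control replicate 1 and at up to 0.20 without another library. The count of all genes past the threshold, 303, was 4 to 284 with 1 library left out, 69 with no filter, 67 with TPM, 177 with the Y-linked level, 20 with the Epcam level and 603 with voom. Of 129 genes of the other lists 6 passed, and 2 with TPM, 10 with the Y-linked level, 2 with the Epcam level, 15 with voom and 1 to 8 with 1 library left out. The share of higher calls was 127 of 303, against 151 of 291 with median ratio scaling, 133 of 248 with quantile normalization, 10 of 67 with TPM and 99 of 357 with TPM without the 3 genes. Where a lone mutant was left, it was assumed to vary like the controls. Titles share the numbers 1 and 2 and no label pairs them. They were treated as sharing only a number. Deviations of same-numbered libraries correlated at -0.067 and 0.020 across genes, but those of 2 mutants mirror each other, so this does not decide the pairing. With a replicate block, 0 members and 259 genes passed, the median of the members was 0.29, and Gas6 kept and Tbx4 lost its call (adjusted p = 0.0477 and 0.0692). Of the other Tbx4 alternatives, 7 lost it (0.0554 to 0.662). Causes of these shifts were not tested. Depth limits Aif1 most, at 23 to 48 reads a library.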

Other observations

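Genes of other blood cells varied between single libraries. Of 10 neutrophil and granulocyte precursor genes, 6 were tested and 0 passed with limma. S100a8 and S100a9, abundant in neutrophils, were at 0.549 and 1.46 FPKM in mutant replicate 1, but at 6.08 and 14.6 FPKM in mutant replicate 2 and at 4.24 to 6.80 and 9.63 to 15.8 FPKM in the controls. Ngp and Ltf, of neutrophil granules, lay below all controls in both mutants (log2 changes -1.53 and -0.83, limma adjusted p = 0.106 and 0.17). Elane and Mpo, of earlier granulocyte precursors, had 16 and 93 reads in the mutants and 1 and 31 in the controls. Elane was at 0 and 2.22 FPKM in mutant replicates 1 and 2, so that its mutant reads came from 1 library. Mpo had 7 and 86 reads in mutant replicates 1 and 2, and 14, 1 and 16 reads in the controls. Most of its mutant reads thus came from that same library. Of the mast cell genes tested, Hdc, which encodes the enzyme that makes histamine, measured 1.16 and 1.36 FPKM in mutant and 0.276, 0.182 and 0.146 FPKM in control libraries. Its log2 change was 0.91 (limma adjusted p = 0.0637). Cpa3, a mast cell protease gene, stood at 1.38 and 6.02 FPKM (mutants) and 0.847, 1.29 and 0.398 FPKM (controls) (limma adjusted p = 0.203), while Gata2 had a log2 change of -0.051. These cells also use Fcer1g, and their part in its level was not tested.

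Of the monocyte genes, F13a1 had mutant values of 10.1 and 12.01 FPKM and control values of 2.82, 7.87 and 7.07 FPKM (log2 change 0.89, limma adjusted p = 0.214), and Plac8 had a log2 change of 0.24. Zbtb46 and Cd74, of dendritic cells, had log2 changes of 0.26 and -0.31, Gata3 and Cd79b, of lymphocytes, of -0.49 and 0.34, and Fabp4, of alveolar macrophages, of -0.43. The microglial genes Tmem119, Gpr34 and P2ry12 were at -0.43, 0.13 and 0.0011, and Tmem119 is also a gene of mesenchyme. The platelet genes Ppbp and Gp9 were at 0.34 and 0.10. Of 11 red cell genes, 10 were tested and 0 passed. The embryonic globin genes Hbb-y and Hbb-bh1 had both mutants above all controls (log2 changes 0.58 and 0.66, limma adjusted p = 0.118 and 0.0736), while Hba-x, also an embryonic globin gene, had both below (-0.35, 0.184). Alas2, of haem synthesis, had both below as well (-0.71, 0.13). Of 10 endothelial genes 0 passed, and 5 had a log2 change above 0 and 5 below, with a median of 0.065. Pecam1 was at -0.13 and Emcn, Esam and Eng at 0.28, 0.25 and 0.21. Foxa2 and Krt8, of epithelium, were at -0.92 and -1.03 (limma adjusted p = 0.0833 and 0.284). Sftpb, Abca3 and Lamp3, of the alveolar type 2 list, were at 1.91, 0.55 and 0.71 (limma adjusted p = 0.0647, 0.082 and 0.133). Sftpd, of the same list, had 1 mutant and 0 control reads. Whether cells of that type were present at E13.5 was not tested. Of 8 mesenchyme genes 1 was higher, Tbx4 (log2 change 1.02, limma adjusted p = 0.0343), and 0 lower, with a median log2 change of 0.029. Tbx5 and Tcf21 were at 0.57 and 0.51, and Pdgfra, Col1a1 and Col1a2 at -0.30, -0.37 and -0.42. Of 10 genes of dying cell uptake and p53-linked death, 5 were higher, which are Gas6, Pmaip1, Cdkn1a, Fas and Bbc3, and 0 lower. Among all genes tested, 0.989% were higher and 1.37% lower. With TPM, Pmaip1 kept its call (limma adjusted p = 0.00439), and Gas6, Cdkn1a, Fas and Bbc3 lost theirs. Fas and Bbc3 also lost theirs with the Epcam level as a covariate (0.085 and 0.14) and with no filter (0.0575 and 0.0723). With 1 mutant left out, the log2 change was 1.81 and 2.01 for Cdkn1a, 1.29 and 1.42 for Fas, and 0.97 and 1.11 for Bbc3. For these 3 genes, such fits hold a lone mutant library. Only the size of the change is given, so a kept call is not implied.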
